A study of Mus musculus with 17 samples.

Results

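The 9 genes described here encode proteins that fasten basal keratinocytes to the basement membrane, other than integrins and collagens. They are Dst, Plec, Cd151, Lama3, Lama5, Lamb1, Lamb3, Lamc1 and Npnt. They were chosen by name from a count table of 48820 mouse genes, and all 9 were among the 30405 genes that passed a filter on low counts. The rule uses their names only, but the 9 genes, and the lists and markers below, were chosen with earlier results of these data known. Counts of them called, set beside shares of all genes, are therefore descriptions.

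The libraries came from hair follicle and epidermal cells of C57BL/6 mice aged 3 months, sorted for green fluorescence in lots of 1000 cells. The populations are named by the locus that carries an EGFP-CreERT2 cassette, namely Lrig1 (upper follicle), Lgr6 (isthmus) or Lgr5 (lower bulge and hair germ). In each population, cells labelled Pelo -/- came from Pelo fl/fl mice and cells labelled WT from Pelo fl/+ mice. All mice carried the cassette and received 4-hydroxytamoxifen, so the WT groups also hold 1 floxed allele, the recombinase and the drug. Pelo encodes a factor that rescues stalled ribosomes, and the study compared cells with and without it. There were 3 Pelo -/- Lrig1, 2 WT Lrig1, 3 Pelo -/- Lgr6, 3 WT Lgr6, 3 Pelo -/- Lgr5 and 3 WT Lgr5 libraries. The labels do not say that replicates were separate animals, so p-values measure the spread between these samples, which may be technical.

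Total counts lay between 13333497 and 28098841 in the 11 Lrig1 and Lgr6 libraries, and between 9647507 and 17219054 in the 6 Lgr5 libraries. Summed CPM (counts scaled to library size after TMM adjustment) of 6 bulge markers was 130 to 436 in Lrig1 and Lgr6 libraries and 1640 to 3030 in Lgr5 libraries. These markers include Lgr5, a locus used for the sort. In each comparison with Lgr5 cells of the same genotype, 1 of the 6 had a positive log2 difference. Summed CPM of 5 basal keratinocyte markers was 16200 to 27700 in Lrig1 and Lgr6 libraries and 4350 to 12000 in Lgr5 libraries. Pelo itself did not separate the genotypes. It had 0.483 to 3.82 CPM in Pelo -/- Lrig1 and 3.72 to 6.05 CPM in WT Lrig1 libraries, 3.10 to 4.94 CPM in Pelo -/- Lgr6 and 2.02 to 5.39 CPM in WT Lgr6 libraries, and 11.8 to 23.6 CPM in Pelo -/- Lgr5 and 5.90 to 17.4 CPM in WT Lgr5 libraries. The floxed exons are not described in the labels, so a gene-level count does not check the genotype, and Pelo -/- below names the label.

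Hemidesmosomes are the rivet-like junctions by which basal keratinocytes hold on to the basement membrane. Inside the cell, the plakins dystonin (Dst, whose epithelial form is BPAG1e) and plectin (Plec) tie keratin filaments to the integrin α6β4. In the membrane, the tetraspanin CD151 binds laminin-binding integrins. Outside, the integrin holds a laminin that contains the α3 and β3 chains, encoded by Lama3 and Lamb3. A second epidermal laminin holds the α5 chain of Lama5 with the β1 or β2 chain (Lamb1, Lamb2) and the γ1 chain of Lamc1. Nephronectin (Npnt) is a basement membrane ligand of integrin α8β1, and in mouse skin the bulge deposits it where the arrector pili muscle attaches.

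In GENCODE M21 on GRCm38, Dst lies at chr1:33908225-34308661 (plus strand), Plec at chr15:76170974-76232574 (minus strand) and Cd151 at chr7:141467392-141471473 (plus strand). Lamb3 lies at chr1:193207699-193343878 (plus strand) and Lama5 at chr2:180176373-180225859 (minus strand). Lamb1 lies at chr12:31265234-31329644 (plus strand), Lamc1 at chr1:153218922-153332786 (minus strand) and Npnt at chr3:132881745-132950291 (minus strand). Exons of other genes covered little of them. Antisense Gm26788 shared 1037 bp with Dst, which is 2.52% of its exonic length, and Parp10 on the same strand shared 205 bp with Plec, or 1.13%. Antisense Gm10575 shared 193 bp with Cd151 (7.04%) and antisense Gm29200 197 bp with Lama3 (1.83%). Strand use in counting is not stated in the sources at hand, so reads in these stretches cannot be assigned.

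RefSeq promoter windows on GRCm38.p6, from 250 bases before to 50 bases after a start, were found for 6 of the 9 genes, in 10 windows. Plec, Lama3 and Lamc1 were not in that table. The windows below are of Dst and Cd151, which were higher, and Lama5 and Npnt, which were lower, in at least 1 comparison with Lgr5 cells. Lamb1, also called lower in 1 such comparison, had a window that is not shown. Both Dst windows are given because the table's count sums transcripts from both starts. GENCODE places the starts of Dst-213 and Dst-217, 2 coding transcripts of 8788 and 8961 bp, close to the internal one. The windows are chr1:34011345-34011644 and chr1:34160010-34160309 (Dst, plus), chr7:141467112-141467411 (Cd151, plus), chr2:180225810-180226109 (Lama5, minus) and chr3:132950242-132950541 (Npnt, minus). Capitals mark the GC box GGGCGG on either strand (CCGCCC on the other).
Dst, upstream start: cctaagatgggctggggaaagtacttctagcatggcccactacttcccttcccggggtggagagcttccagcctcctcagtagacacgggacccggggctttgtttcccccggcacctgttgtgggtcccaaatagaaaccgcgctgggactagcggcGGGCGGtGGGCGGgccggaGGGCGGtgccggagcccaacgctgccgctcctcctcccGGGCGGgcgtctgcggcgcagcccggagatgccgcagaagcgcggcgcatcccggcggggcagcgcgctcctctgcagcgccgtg
Dst, internal start: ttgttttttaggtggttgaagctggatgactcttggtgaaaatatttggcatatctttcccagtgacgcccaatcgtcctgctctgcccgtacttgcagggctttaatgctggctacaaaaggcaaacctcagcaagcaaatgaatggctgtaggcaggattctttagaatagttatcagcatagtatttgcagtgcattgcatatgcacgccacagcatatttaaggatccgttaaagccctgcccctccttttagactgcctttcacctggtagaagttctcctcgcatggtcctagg
Cd151: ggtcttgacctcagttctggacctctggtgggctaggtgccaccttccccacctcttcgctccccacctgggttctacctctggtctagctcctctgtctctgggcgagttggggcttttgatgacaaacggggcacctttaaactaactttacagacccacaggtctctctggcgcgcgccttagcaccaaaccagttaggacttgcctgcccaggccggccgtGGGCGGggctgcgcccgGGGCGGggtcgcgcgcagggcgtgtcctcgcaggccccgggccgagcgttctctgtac
Lama5: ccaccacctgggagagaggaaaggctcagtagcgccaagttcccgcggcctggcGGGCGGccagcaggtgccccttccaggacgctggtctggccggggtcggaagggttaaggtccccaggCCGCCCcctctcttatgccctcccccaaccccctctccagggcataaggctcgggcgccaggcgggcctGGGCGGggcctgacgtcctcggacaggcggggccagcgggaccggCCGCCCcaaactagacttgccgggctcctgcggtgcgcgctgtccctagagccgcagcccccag
Npnt: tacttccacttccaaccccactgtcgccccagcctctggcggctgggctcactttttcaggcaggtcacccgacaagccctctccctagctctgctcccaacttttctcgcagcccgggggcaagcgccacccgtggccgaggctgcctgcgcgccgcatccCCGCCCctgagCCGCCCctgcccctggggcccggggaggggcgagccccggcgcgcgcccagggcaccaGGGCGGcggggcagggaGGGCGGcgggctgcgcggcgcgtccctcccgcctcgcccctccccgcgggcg

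The GC box occurred 4 times in the upstream Dst window, 4 times in Lama5, 4 times in Npnt and 2 times in Cd151, and not at all in the internal Dst window. It was present in 35.7% of the 32851 promoter windows of the table. The AP-1 letters TGANTCA, searched on both strands, were in none of the 10 windows and in 7.81% of all windows. The TEAD letters GGAATG were in 1 of the Lamb3 windows and in 14.7% of all windows. These are matches of letters only. The Lamb1 window, not shown, held 2 GC boxes. A second window of Cd151 and a second of Npnt, not shown either, held no GC box. A gene higher in Lrig1 and Lgr6 cells (Dst) and a gene lower there (Npnt) thus each had a window with and a window without it.

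Scaled to exonic length (RPKM, with the merged exons of each gene as its length), the 9 genes differed widely in level. In the 11 Lrig1 and Lgr6 libraries, mean RPKM was 46.6 for Dst, 34.5 for Cd151, 28.5 for Lamb3 and 14.9 for Lama3. It was 6.5 for Plec, 6.14 for Npnt, 4.71 for Lamc1, 1.85 for Lama5 and 1.07 for Lamb1. In the 6 Lgr5 libraries Npnt had the highest mean at 22.8 RPKM, beside Dst at 21.2, Lamb3 at 16.4, Cd151 at 13.9 and Lama3 at 8.77. There Lamc1 had 3.87, Lama5 3.74, Lamb1 3.40 and Plec 1.83 RPKM. The order of the genes therefore differed between the populations mainly by the place of Npnt and Plec. The merged exons of Dst span 41155 bp, more than any 1 of its transcripts, so its RPKM understates the level of a single form. The place of Npnt above Dst in Lgr5 libraries rests on that length. Merged exons were longer than any 1 transcript for other genes too. Among these were Lamb1 (9917 against at most 5784 bp), Lamb3 (6612 against 4867 bp) and Cd151 (2741 against 1865 bp). The order of genes with close RPKM, such as Lamb1, Lama5 and Lamc1 in Lgr5 libraries, also rests on merged lengths.

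**Figure D1:**
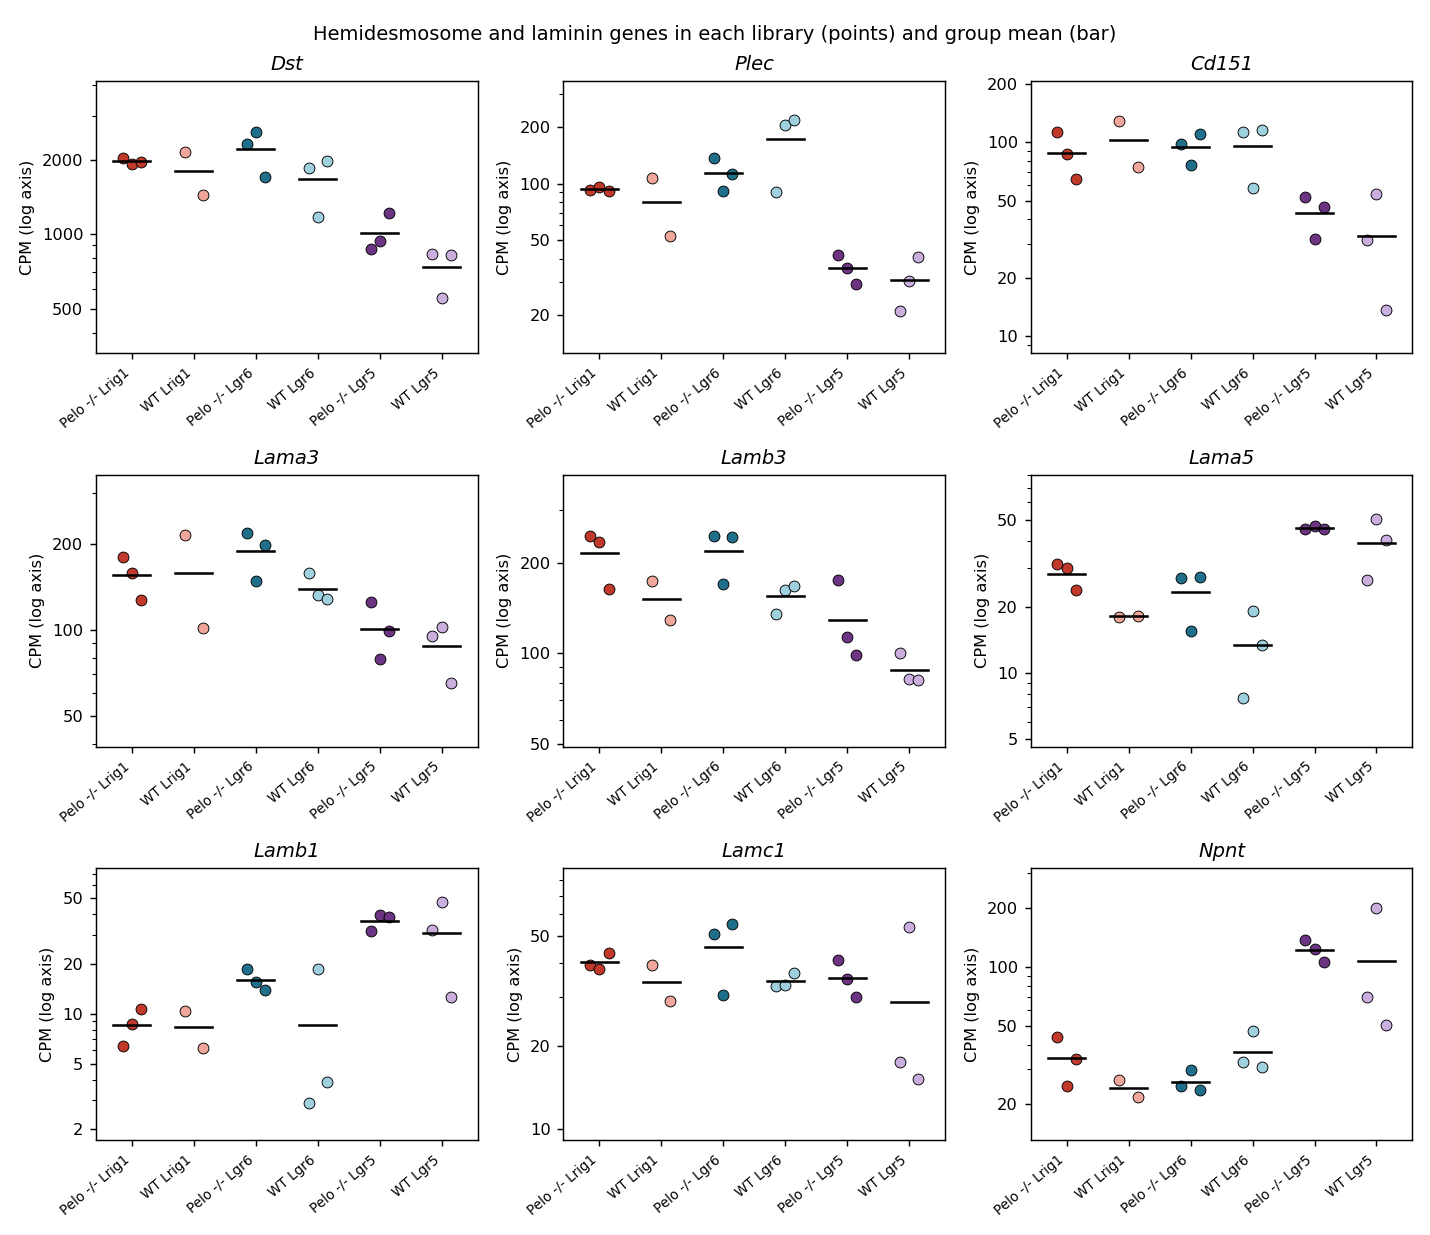
Each panel shows 1 gene, with CPM on a log axis and the 6 groups along the horizontal axis. Points are libraries and bars are group means. Plec and Cd151 were higher, and Npnt lower, in every Lrig1 and Lgr6 library than in any Lgr5 library, whereas Lamc1 overlapped between all populations.

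Dystonin transcripts were the most abundant of the 9 in counts. Dst had 2030, 1924 and 1954 CPM in Pelo -/- Lrig1 libraries, 2145 and 1439 in WT Lrig1, 2306, 2598 and 1703 in Pelo -/- Lgr6, and 1847, 1175 and 1983 in WT Lgr6. In Lgr5 cells it had 873, 939 and 1222 CPM in Pelo -/- libraries and 827, 550 and 825 in WT libraries. Within each genotype every Lrig1 and Lgr6 library lay above every Lgr5 library. Over all 17 libraries the populations touched, since WT Lgr6 replicate 2 was below the highest Pelo -/- Lgr5 library. Dst was higher in WT Lrig1 than in WT Lgr5 cells by 1.29 ± 0.37 on the log2 scale (SE here and below; edgeR quasi-likelihood test, adjusted p = 0.0213). It was higher in WT Lgr6 than in WT Lgr5 cells by 1.18 ± 0.34 (adjusted p = 0.0189). Among Pelo -/- cells it was higher in Lgr6 than in Lgr5 cells by 1.12 ± 0.34 (adjusted p = 0.0326), and the Lrig1 difference of 0.96 ± 0.34 missed the threshold (adjusted p = 0.0796). These sizes depend on scaling. The log2 difference stayed positive under each of the alternatives tried. It came down to 0.27, 0.21 and 0.46 in the 3 comparisons called, with adjusted p up to 0.576, 0.682 and 0.289. Single libraries mattered too. Leaving out WT Lrig1 replicate 1 (1.13), WT Lrig1 replicate 2 (1.47) or WT Lgr5 replicate 2 (1.14) ended the call in WT Lrig1 cells, with adjusted p of 0.0846 to 0.187. Leaving out WT Lgr6 replicate 1 (1.09), WT Lgr6 replicate 3 (0.82) or WT Lgr5 replicate 2 (0.95) ended that in WT Lgr6 cells, with adjusted p of 0.0717 to 0.243. The Pelo -/- Lgr6 call was lost without Pelo -/- Lgr6 replicate 1 or 2 or Pelo -/- Lgr5 replicate 1 or 2, at 0.99 to 1.08 (adjusted p = 0.0713 to 0.124).

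Plec, the other plakin, showed the wider gap. Its CPM was 93.0, 96.1 and 91.0 in Pelo -/- Lrig1, 107 and 52.95 in WT Lrig1, 137, 91.6 and 112 in Pelo -/- Lgr6, and 90.7, 205 and 218 in WT Lgr6 libraries. In Lgr5 cells its CPM was 41.7, 35.9 and 29.5 in Pelo -/- and 21.02, 30.5 and 40.7 in WT libraries. The lowest of the 11 Lrig1 and Lgr6 libraries, at 52.95, was above the highest Lgr5 library, at 41.7. Plec was higher in WT Lgr6 than in WT Lgr5 cells by 2.48 ± 0.41 (adjusted p = 0.000125). That call held in 6 of 6 fits that left out 1 library and in 7 of 7 other settings, with log2 differences of 1.49 to 2.77. The call in Pelo -/- Lgr6 against Pelo -/- Lgr5 cells (1.67 ± 0.40, adjusted p = 0.00633) held in 6 of 6 such fits. It was lost with total counts alone (1.07, adjusted p = 0.0747). In Lrig1 cells the differences were 1.39 ± 0.39 for Pelo -/- (adjusted p = 0.0269) and 1.38 ± 0.43 for WT (adjusted p = 0.0341). These 2 were weaker: the Pelo -/- value was still called only without Pelo -/- Lgr5 replicate 1, and the WT value only without WT Lgr5 replicate 3. Without WT Lrig1 replicate 1, the higher library of its pair, the WT value was 0.93 (adjusted p = 0.312). Without any other of these libraries it was 1.15 to 1.71 in WT cells and 1.26 to 1.41 in Pelo -/- cells. Scaling moved both. The WT value was 0.98 with RLE (adjusted p = 0.128), 0.33 with total counts (adjusted p = 0.549) and 0.40 at a minimum mean CPM of 5 (adjusted p = 0.519), and DESeq2 and limma-voom did not call it either. The Pelo -/- value was 1.26 with RLE (adjusted p = 0.0564), 0.86 with total counts (adjusted p = 0.153) and 0.90 at the CPM minimum (adjusted p = 0.104).

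Cd151 had 113.5, 86.6 and 64.8 CPM in Pelo -/- Lrig1 libraries, 129.5 and 75.05 in WT Lrig1, 97.7, 76.4 and 110 in Pelo -/- Lgr6, and 113, 58.4 and 116 in WT Lgr6. It had 51.9, 31.6 and 46.5 CPM in Pelo -/- Lgr5 and 31.3, 54.15 and 13.6 in WT Lgr5 libraries. All 11 Lrig1 and Lgr6 libraries were above all 6 Lgr5 libraries, the closest pair being WT Lgr6 replicate 2 and WT Lgr5 replicate 2. The tetraspanin gene was called higher in WT Lrig1 cells (1.63 ± 0.48, adjusted p = 0.0250) and in WT Lgr6 cells (1.54 ± 0.44, adjusted p = 0.0199) against WT Lgr5 cells. With RLE size factors both calls were lost (1.34 in WT Lrig1 and 1.19 in WT Lgr6 cells, adjusted p = 0.0623 and 0.0743), as they were with total counts (0.73 and 0.69, adjusted p = 0.191 and 0.216) and a minimum mean CPM of 5 (0.91 and 0.80, adjusted p = 0.0844 in both). Among Pelo -/- cells the differences of Cd151 were 1.03 ± 0.44 for Lrig1 (adjusted p = 0.157) and 1.13 ± 0.44 for Lgr6 (adjusted p = 0.108). The low WT Lgr5 replicate 3, in which predicted Gm genes took 33.6% of counts against 16.8% to 24.8% elsewhere, bears on the 2 calls. Without it the differences were 1.22 in WT Lrig1 (adjusted p = 0.126) and 1.08 in WT Lgr6 cells (adjusted p = 0.164). The WT Lrig1 call was also lost without WT Lrig1 replicate 1 (1.31), WT Lrig1 replicate 2 (1.86) or WT Lgr5 replicate 1 (1.58), and the WT Lgr6 call without WT Lgr6 replicate 1 (1.39), WT Lgr6 replicate 3 (1.14) or WT Lgr5 replicate 1 (1.48).

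The α3 and β3 chain genes of the hemidesmosomal laminin were not called in any comparison. Lama3 had 128 to 179 CPM in Pelo -/- Lrig1, 102 and 214 in WT Lrig1, 148 to 218 in Pelo -/- Lgr6, 128 to 158 in WT Lgr6, 78.85 to 125 in Pelo -/- Lgr5 and 65.2 to 102 in WT Lgr5 libraries. Its log2 differences from Lgr5 cells were 0.62 ± 0.35 in Pelo -/- Lrig1 and 0.85 ± 0.39 in WT Lrig1 cells. They were 0.90 ± 0.35 in Pelo -/- Lgr6 and 0.67 ± 0.35 in WT Lgr6 cells, and adjusted p over the 4 was 0.112 to 0.283. With total counts alone the WT values were -0.10 (Lrig1) and -0.18 (Lgr6), so the sign is not fixed.

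Lamb3 stood at 164 to 245.5 CPM in Pelo -/- Lrig1, 129.5 and 174 in WT Lrig1, 170 to 245 in Pelo -/- Lgr6, 135 to 168 in WT Lgr6, 98.6 to 175 in Pelo -/- Lgr5 and 81.6 to 100 in WT Lgr5 libraries. Its differences from Lgr5 cells lay between 0.73 and 0.82 on the log2 scale in all 4 comparisons, with adjusted p of 0.126 to 0.188. The WT values turned to -0.20 (Lrig1) and -0.08 (Lgr6) with total counts alone.

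The α5 and β1 chains ran the other way. Lama5 had 31.4, 30.0 and 23.8 CPM in Pelo -/- Lrig1, 18.1 and 18.3 in WT Lrig1, 27.0, 15.6 and 27.5 in Pelo -/- Lgr6, and 7.69, 19.15 and 13.45 in WT Lgr6 libraries. It had 45.5, 46.7 and 45.4 CPM in Pelo -/- Lgr5 and 26.7, 50.3 and 40.5 in WT Lgr5 libraries. Within a genotype no Lrig1 or Lgr6 library reached the Lgr5 libraries. Lama5 was called lower in WT Lgr6 than in WT Lgr5 cells (-1.54 ± 0.44, adjusted p = 0.0188), and the call did not hold when WT Lgr6 replicate 1 was left out (-1.28, adjusted p = 0.106) or no filter was used (-1.51, adjusted p = 0.0924). The differences were -0.69 ± 0.43 in Pelo -/- Lrig1 (adjusted p = 0.329), -1.11 ± 0.50 in WT Lrig1 (adjusted p = 0.146) and -0.97 ± 0.43 in Pelo -/- Lgr6 cells (adjusted p = 0.163). Total counts, a minimum mean CPM of 5 and DESeq2 each called Lama5 lower in WT Lrig1 (adjusted p = 0.0049 to 0.0114) and in Pelo -/- Lgr6 cells (adjusted p = 0.00817 to 0.0314), and the CPM minimum also in Pelo -/- Lrig1 cells (adjusted p = 0.037).

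Lamb1 was the scarcest of the 9 in Lrig1 and Lgr6 cells. It had 6.38, 8.69 and 10.75 CPM in Pelo -/- Lrig1, 10.4 and 6.24 in WT Lrig1, 18.8, 15.6 and 13.9 in Pelo -/- Lgr6, and 2.86, 18.8 and 3.88 in WT Lgr6 libraries. Lgr5 cells had 31.6, 39.6 and 38.5 CPM in Pelo -/- and 32.25, 47.8 and 12.7 in WT libraries. WT Lgr5 replicate 3, at 12.7 CPM, lay below WT Lgr6 replicate 2 and below every Pelo -/- Lgr6 library. Every other Lgr5 library, at 31.6 CPM or more, lay above every Lrig1 and Lgr6 library, at 18.8 CPM or less. The call was made in Pelo -/- Lrig1 against Pelo -/- Lgr5 cells (-2.09 ± 0.63, adjusted p = 0.0393). WT Lrig1 against WT Lgr5 cells gave -1.90 ± 0.73 (adjusted p = 0.0920), WT Lgr6 gave -1.86 ± 0.62 (adjusted p = 0.0512) and Pelo -/- Lgr6 gave -1.19 ± 0.61 (adjusted p = 0.231). Without WT Lgr6 replicate 2 the WT Lgr6 value was -3.2 (adjusted p = 0.00162). All 7 other settings called it, with adjusted p of 0.000663 to 0.0383, the block on replicate number giving -1.97 (adjusted p = 0.0383). The WT Lrig1 value was called in 4 of these 7 settings. Without WT Lgr5 replicate 3 the WT Lgr6 value was -2.41 (adjusted p = 0.0146), and WT Lrig1 cells gave -2.3 (adjusted p = 0.0442). The call in Pelo -/- Lrig1 cells was lost without any 1 of the 3 Pelo -/- Lrig1 libraries or without Pelo -/- Lgr5 replicate 2 or 3, at -2.27 to -1.92 (adjusted p = 0.0753 to 0.155).

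Lamc1, whose γ1 chain is shared by many laminins, showed no call and no constant sign. Its CPM was 38.1 to 43.5 in Pelo -/- Lrig1, 29.0 and 39.3 in WT Lrig1, 30.6 to 55.1 in Pelo -/- Lgr6, 33.0 to 36.6 in WT Lgr6, 30.2 to 40.8 in Pelo -/- Lgr5 and 15.2 to 53.8 in WT Lgr5 libraries. Differences from Lgr5 cells were 0.19 to 0.37 on the log2 scale, each with a standard error of at least 0.44, and all 4 turned negative with total counts alone (-0.68 to -0.23).

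Nephronectin showed the reverse of the plakins. Npnt had 43.9, 24.7 and 33.95 CPM in Pelo -/- Lrig1, 26.55 and 21.8 in WT Lrig1, 24.8, 29.7 and 23.5 in Pelo -/- Lgr6, and 32.8, 47.1 and 30.8 in WT Lgr6 libraries. It had 138, 123 and 106 CPM in Pelo -/- Lgr5 and 70.4, 200 and 50.6 in WT Lgr5 libraries. No Lrig1 or Lgr6 library reached the lowest Lgr5 library, and the 3 WT Lgr5 libraries ranged from 50.6 to 200 CPM. Npnt was called lower in all 4 comparisons with Lgr5 cells. The log2 difference was -1.84 ± 0.44 in Pelo -/- Lrig1 (adjusted p = 0.00795) and -2.15 ± 0.51 in WT Lrig1 cells (adjusted p = 0.00585). It was -2.24 ± 0.44 in Pelo -/- Lgr6 (adjusted p = 0.00123) and -1.53 ± 0.43 in WT Lgr6 cells (adjusted p = 0.0174). The call in Pelo -/- Lgr6 cells held in 6 of 6 leave-one-out fits and 7 of 7 other settings. WT Lgr5 replicate 2 carried part of the WT values: without it they were -1.28 in Lrig1 cells, still called, and -0.82 in Lgr6 cells (adjusted p = 0.159). The WT Lrig1 call was lost without WT Lrig1 replicate 1 (-2.19, adjusted p = 0.0899) or replicate 2 (-2.14, adjusted p = 0.135). The WT Lgr6 call was lost without WT Lgr6 replicate 1 (-1.47, adjusted p = 0.0681) or replicate 3 (-1.69, adjusted p = 0.0553) and with limma-voom (-1.28, adjusted p = 0.0542), and the Pelo -/- Lrig1 call without Pelo -/- Lrig1 replicate 2 (-1.65, adjusted p = 0.0613).

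Counted together, 4 of the 9 genes were called between WT Lrig1 and WT Lgr5 cells, 3 higher and 1 lower, where 11.1% of all genes tested were called, 9.09% higher and 1.99% lower. Between WT Lgr6 and WT Lgr5 cells 5 were called, 3 higher and 2 lower, beside 12.2% of all genes, 10.6% higher and 1.57% lower. Between Pelo -/- Lrig1 and Pelo -/- Lgr5 cells 3 were called, 1 higher and 2 lower, beside 7.85% of all genes, 5.77% higher and 2.08% lower. Between Pelo -/- Lgr6 and Pelo -/- Lgr5 cells 3 were called, 2 higher and 1 lower, beside 9.95% of all genes, 7.23% higher and 2.72% lower. Lrig1 and Lgr6 cells of a genotype are set against the same Lgr5 libraries, so their 2 columns of values are not independent. WT and Pelo -/- comparisons use different libraries within 1 fit. The split between higher and lower calls depended on scaling. In WT Lrig1 cells it was 0 higher and 3 lower with total counts alone or a minimum mean CPM of 5, as Dst, Plec and Cd151 lost their calls and Lama5 and Lamb1 gained theirs, and 0 and 2 with RLE size factors. In WT Lgr6 cells it was 1 higher (Plec) and 3 lower (Lama5, Lamb1 and Npnt) in each of these settings. For Pelo -/- Lrig1 cells it was 0 and 2 with total counts or RLE, and 0 and 3 with the CPM minimum. For Pelo -/- Lgr6 cells it was 0 and 2 with total counts, 1 and 1 with RLE, and 1 and 3 with the CPM minimum. Plec and Cd151 were higher and Npnt lower without overlap over all 17 libraries, as were 7.54% and 2.38% of all genes.

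Separation of libraries was common in these comparisons and is given with its background. In Pelo -/- Lrig1 against Pelo -/- Lgr5 cells, Dst, Plec, Cd151 and Lama3 were higher without overlap (14.3% of all genes) and Lama5, Lamb1 and Npnt lower (17.8%). The same 7 genes were separate in Pelo -/- Lgr6 against Pelo -/- Lgr5 cells, where the shares of all genes were 15.5% and 17.3%. In WT Lrig1 against WT Lgr5 cells, Dst, Plec, Cd151 and Lamb3 were higher (19.7%) and Lama5, Lamb1 and Npnt lower (25.4%). In WT Lgr6 against WT Lgr5 cells, Dst, Plec, Cd151, Lama3 and Lamb3 were higher (17.2%) and Lama5 and Npnt lower (12.6%). By group mean, Npnt ran downward from Pelo -/- Lgr5 and WT Lgr5 to WT Lgr6, Pelo -/- Lrig1, Pelo -/- Lgr6 and WT Lrig1, and of these neighbours only WT Lgr5 and WT Lgr6 had separate ranges. Plec ran from WT Lgr6, Pelo -/- Lgr6, Pelo -/- Lrig1 and WT Lrig1 down to Pelo -/- Lgr5 and WT Lgr5, with separate ranges only between WT Lrig1 and Pelo -/- Lgr5.

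**Figure D2:**
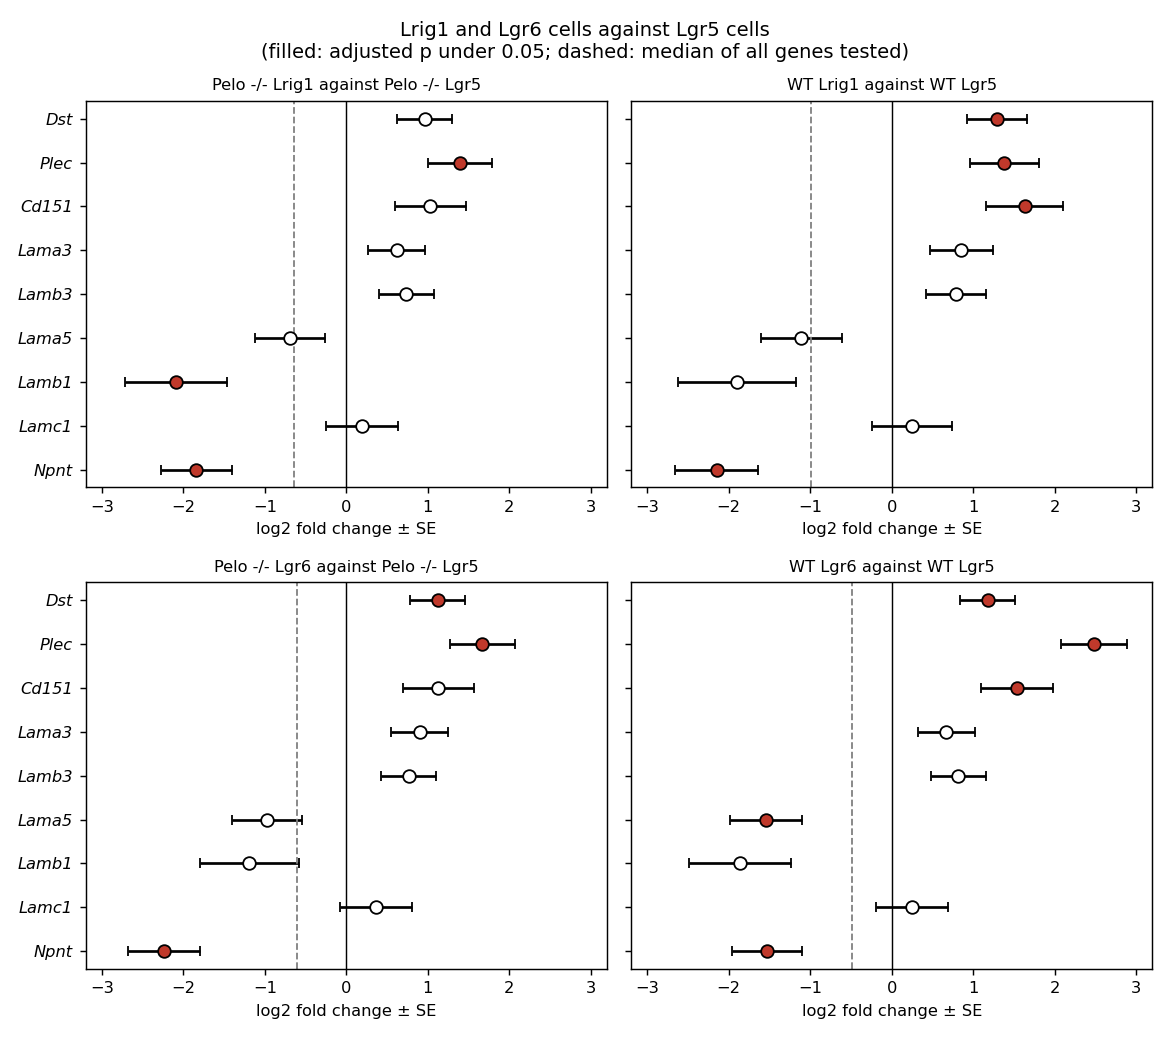
The horizontal axis is the log2 fold change against Lgr5 cells of the same genotype, with bars of 1 SE; filled points passed an adjusted p of 0.05, and dashed lines mark the median of all genes tested. Dst, Plec and Cd151 lay right of 0 and Lama5, Lamb1 and Npnt left of 0 in all 4 panels.

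The median of all genes tested was not at 0 in these comparisons. The median log2 difference was -0.64 in Pelo -/- Lrig1, -0.99 in WT Lrig1, -0.61 in Pelo -/- Lgr6 and -0.49 in WT Lgr6 cells against Lgr5 cells of the same genotype. RLE size factors moved it to -0.75, -1.36, -0.77 and -0.996, and total counts alone to -1.22, -2.00, -1.27 and -1.38. Relative to that median, Npnt differed by -1.16 in WT Lrig1 and by -1.63 in Pelo -/- Lgr6 cells, and Plec by 2.97 in WT Lgr6 cells. Lama5 in WT Lrig1 cells stood only 0.12 below the median gene (-0.12), and Dst in WT Lrig1 cells stood 2.28 above it. That reading depends on which genes enter the median. Over genes with a mean CPM of at least 5, whose median was near 0 (-0.06 to -0.04), Lama5 in WT Lrig1 cells stood at -1.93, Dst at 0.39 and Npnt at -2.80 relative to it, and Plec in WT Lgr6 cells at 1.53. Fewer transcripts per cell and fewer cells of a kind in a sort cannot be told apart in such bulk samples.

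Ratios between 2 genes of the same library do not depend on any scaling between libraries. They were added after the values had been seen and carry no test. Per exonic length, Npnt amounted to 8.79% to 32.8% of Dst in the 11 Lrig1 and Lgr6 libraries (median 12.4%) and to 50.2% to 297% in the 6 Lgr5 libraries (median 89.1%). The size of these shares rests on the merged exon length of Dst. Lama5 amounted to 4.59% to 17.9% of Lama3 in Lrig1 and Lgr6 libraries (median 13.1%) and to 26.4% to 58.7% in Lgr5 libraries (median 44.9%). Lamb1 amounted to 1.41% to 7.71% of Lamb3 in Lrig1 and Lgr6 libraries (median 3.80%) and to 10.4% to 38.7% in Lgr5 libraries (median 22.4%). The size of the Lamb1 shares rests on merged lengths as well, which for both genes exceed any single transcript. In each of the 3 ratios the 11 libraries lay below all 6. The α5 and β1 chains thus made up a larger part of these laminin transcripts in Lgr5 cells, although the α3 and β3 transcripts remained the more abundant in every library.

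**Figure D3:**
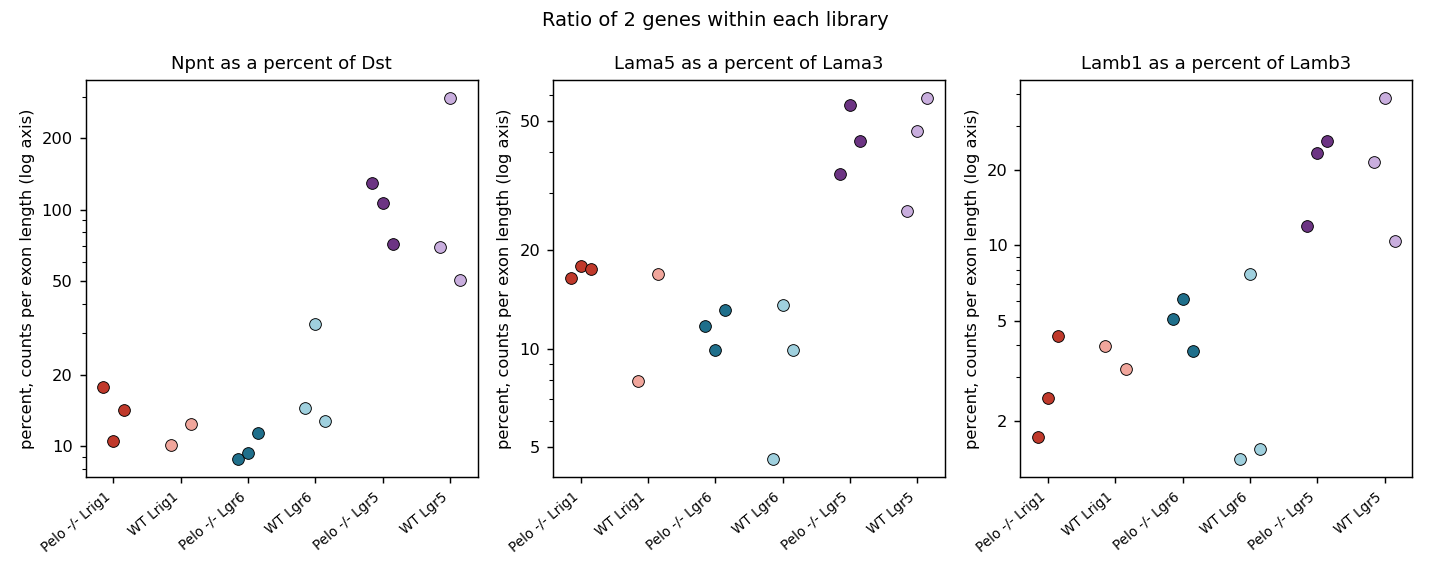
Each point is 1 library, with the ratio of 2 genes in percent of counts per exonic length on a log axis and the 6 groups along the horizontal axis. In all 3 panels the Lgr5 libraries lay above every Lrig1 and Lgr6 library, for Lama5 per Lama3 at 26.4% to 58.7% against at most 17.9%.

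Between Lrig1 and Lgr6 cells no gene of the 9 was called. The widest difference was that of Plec in WT cells, -1.10 ± 0.45 (edgeR adjusted p = 1). Its 2 WT Lrig1 values of 107 and 52.95 CPM overlapped the WT Lgr6 values of 90.7, 205 and 218 CPM. Among Pelo -/- cells the 9 differences lay between -0.90 (Lamb1) and 0.40 (Npnt). The edgeR test called 0% of all genes in either comparison, with 1 of the 9 at an unadjusted p under 0.05 in WT cells and 0 in Pelo -/- cells. Of the 30405 genes tested, 1420 in WT and 1277 in Pelo -/- cells were under it. DESeq2 and limma-voom called 0 of the 9 in both. Npnt was lower without overlap in WT Lrig1 than in WT Lgr6 libraries, where 5.85% of all genes were higher and 12.8% lower in that way. Lamb1 was lower without overlap in Pelo -/- Lrig1 than in Pelo -/- Lgr6 libraries, where the shares were 3.97% and 5.71%.

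None of the 9 genes was called between cells labelled Pelo -/- and WT in any population. The test called 0% of all genes in Lrig1 cells, 0% in Lgr6 cells and 0.0197% in Lgr5 cells. At an unadjusted p under 0.05 the count of the 9 was 0 in each population. Of the 30405 genes tested, 1106 in Lrig1, 1180 in Lgr6 and 1901 in Lgr5 cells were under it. DESeq2 and limma-voom called 0 of the 9 as well. In Lrig1 cells the log2 differences ran from -0.21 (Cd151) to 0.64 (Lama5), with a median of 0.22 beside -0.02 for all genes. In Lgr6 cells they ran from -0.60 (Plec) to 0.92 (Lamb1), with a median of 0.41 beside -0.27 for all genes. In Lgr5 cells all 9 were positive, from 0.20 (Npnt) to 0.55 (Lamb3), with a median of 0.24 beside -0.14 for all genes. With total counts alone Plec (-0.11), Lama3 (-0.018) and Lama5 (-0.018) turned negative there. Their lowest values over the other settings were further down, at -0.20, -0.083 and -0.092, so the common sign is not fixed. Standard errors over the 3 comparisons were 0.33 to 0.68. Differences such as that of Lamb1 in Lgr6 cells (0.92 ± 0.61) were not called with 2 or 3 libraries a group.

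Lamb3, picked after the values had been seen, had the most alike Pelo -/- differences over the 3 populations in the main fit. It averaged 215 ± 44.2 CPM in Pelo -/- Lrig1 libraries (SD, n = 3), against 152 ± 31.2 in WT Lrig1 libraries (n = 2). It averaged 219 ± 42.8 in Pelo -/- Lgr6 and 155 ± 17.5 in WT Lgr6 libraries, and 129 ± 40.8 in Pelo -/- Lgr5 and 88.0 ± 10.4 in WT Lgr5 libraries (SD, n = 3 each). The log2 differences were 0.50 ± 0.38, 0.50 ± 0.33 and 0.55 ± 0.33 (adjusted p = 1, 1 and 0.923). Over the other settings the values of Lamb3 were 0.52 to 0.69 in Lrig1, 0.48 to 0.61 in Lgr6 and 0.19 to 0.64 in Lgr5 cells. Its libraries did not overlap between genotypes in Lgr6 cells, where 2.5% of all genes were higher without overlap. Without overlap, Lama5 was higher in Pelo -/- Lrig1 cells (8.17% of all genes, with 10.7% lower), Dst was higher in Pelo -/- Lgr5 cells (3.8%, with 4.41% lower) and Npnt was lower in Pelo -/- Lgr6 cells (5.74%).

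**Figure D4:**
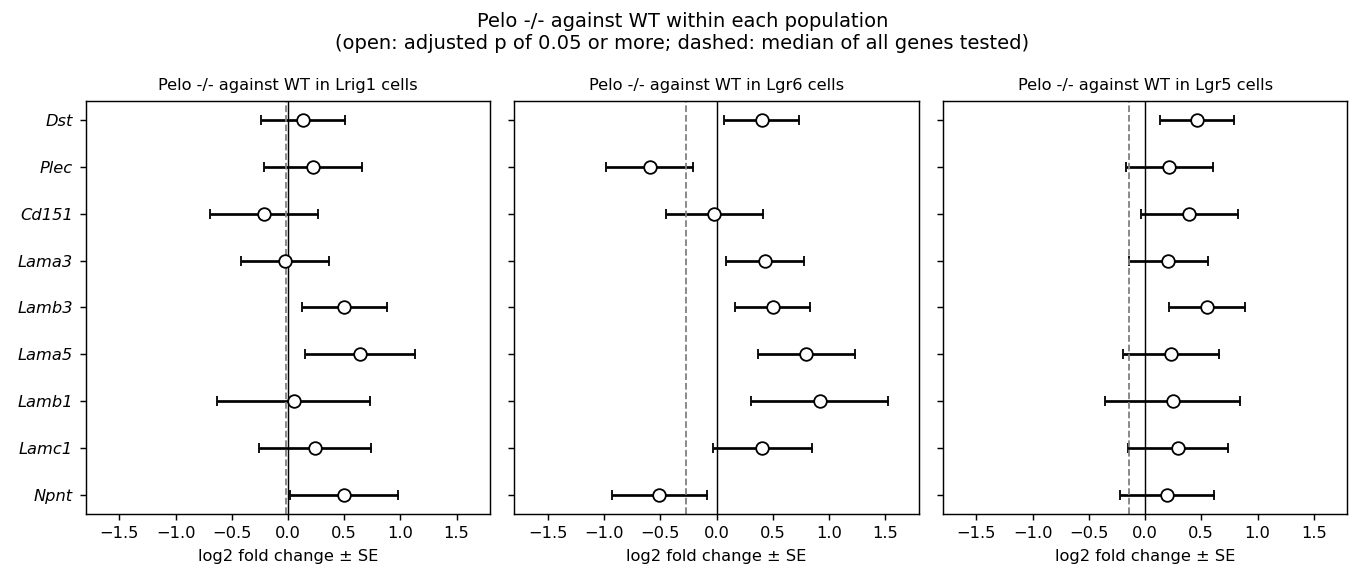
The horizontal axis is the log2 fold change of Pelo -/- over WT cells within Lrig1, Lgr6 and Lgr5 cells, with bars of 1 SE and a dashed line at the median of all genes tested. All points are open because no adjusted p was under 0.05. In Lgr5 cells all 9 points lie right of 0, of which Plec, Lama3 and Lama5 turned negative with total counts alone and went lower still in other settings.

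Nor did the Pelo -/- differences of the 9 genes differ between populations by the test of that difference. Over the 3 pairs of populations, 0 of the 9 were called, where the edgeR test called 0% of all genes in each pair. At an unadjusted p under 0.05 the count of the 9 was 0. Of the 30405 genes tested, 1613 (Lrig1 minus Lgr5), 1454 (Lgr6 minus Lgr5) and 1278 (Lrig1 minus Lgr6) were under it. DESeq2 and limma-voom called 0 of the 9. The widest was that of Npnt, whose Lrig1 effect exceeded its Lgr6 effect by 1.01 ± 0.64 (adjusted p = 1). The next was that of Lamb1, whose Lrig1 effect was below its Lgr6 effect (-0.87 ± 0.91, adjusted p = 1).

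The direct partners of these proteins were read as a list of 7 genes, namely the integrin genes Itga6, Itgb4 and Itga3, the collagen genes Col17a1 and Col7a1, and the keratin genes Krt5 and Krt14. Against Lgr5 cells, 4 of 7 were called higher in Pelo -/- Lrig1, 5 in WT Lrig1, 4 in Pelo -/- Lgr6 and 5 in WT Lgr6 cells, and 0 were called lower. Their median log2 difference was 1.17 in Pelo -/- Lrig1, 1.68 in WT Lrig1, 1.19 in Pelo -/- Lgr6 and 1.5 in WT Lgr6 cells, beside the all-gene medians given above. Krt14, a keratin of basal cells that hemidesmosomes anchor, showed the widest difference at 4.48 ± 0.47 in WT Lgr6 cells (adjusted p = 5.89e-07). Itga6 differed by 1.5 ± 0.33 there (adjusted p = 0.00258). That call of Itga6 held in 5 of 6 leave-one-out fits and 5 of 7 other settings. It was lost with total counts alone (0.59, adjusted p = 0.151). With total counts alone 3 of the 7 were called higher in each WT comparison, and 1 was called lower.

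In the Pelo -/- against WT comparisons all 7 partners had positive differences in each population, the lowest in Lrig1 cells being 0.000236. Their median was 0.28 in Lrig1, 0.455 in Lgr6 and 0.63 in Lgr5 cells, beside -0.02, -0.27 and -0.14 for all genes. Of the 7, 1 was called, in Lgr5 cells, where 0.0197% of all genes were called. With a minimum mean CPM of 5, Itga6 in Lgr5 cells was at -0.0029. Itga3, the integrin α3 subunit that pairs with CD151, averaged 50.2 ± 12.4 CPM in Pelo -/- Lgr5 and 11.5 ± 2.25 in WT Lgr5 libraries (SD, n = 3 each). The difference of 2.13 ± 0.38 (adjusted p = 0.0457) was called in 2 of 6 leave-one-out fits. It was lost without Pelo -/- Lgr5 replicate 2 (1.92), WT Lgr5 replicate 1 (2.16), WT Lgr5 replicate 2 (2.19) or WT Lgr5 replicate 3 (1.92), with adjusted p of 0.0657 to 0.127. It was lost with RLE size factors (1.97, adjusted p = 0.0812), total counts, the replicate block and limma-voom (2.11, adjusted p = 0.439). The test of its effect in Lrig1 against Lgr5 cells gave -1.88 ± 0.55 (adjusted p = 0.761).

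Of 19 further basement membrane genes, 4 were called lower in Pelo -/- Lrig1, 4 in WT Lrig1, 6 in Pelo -/- Lgr6 and 4 in WT Lgr6 cells against Lgr5 cells. At most 1, the collagen IV gene Col4a6, was called higher. Hspg2, which encodes perlecan, was lower in WT Lrig1 cells (-3.07 ± 0.78, adjusted p = 0.00887) and in WT Lgr6 cells (-2.68 ± 0.65, adjusted p = 0.00529). Without WT Lrig1 replicate 2 the first was -2.45 (adjusted p = 0.207). Egfl6, whose product lies in the basement membrane of the upper hair follicle in mouse skin, was lower in Pelo -/- Lgr6 (-2.39 ± 0.69, adjusted p = 0.0267) and WT Lgr6 cells (-2.58 ± 0.70, adjusted p = 0.0134), and each call was kept in 3 and 4 of 6 leave-one-out fits, with adjusted p up to 0.13 and 0.0648. Total counts alone gave 7, 10, 10 and 11 genes called lower.

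Of 11 listed receptors and linkers 10 were tested. Against Lgr5 cells, 1 was called higher and 1 lower in Pelo -/- Lrig1, 2 and 1 in WT Lrig1, 3 and 1 in Pelo -/- Lgr6, and 3 and 0 in WT Lgr6 cells. Sdc4, encoding the heparan sulfate proteoglycan syndecan-4, was called higher in all 4, by 2.81 ± 0.55 to 4.79 ± 0.63. Fermt2, whose product kindlin-2 activates integrins, was called lower in 3, the widest difference being -4.55 ± 0.92 in Pelo -/- Lrig1 cells, where every leave-one-out fit kept it.

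Of 9 listed other plakins and tetraspanins, 8 were tested. Those called were 1 higher and 1 lower in Pelo -/- Lrig1, 7 and 1 in WT Lrig1, 4 and 1 in Pelo -/- Lgr6, and 6 and 1 in WT Lgr6 cells against Lgr5 cells. The tetraspanin gene Cd9 was higher in all 4, by 1.78 ± 0.38 to 2.61 ± 0.42, and kept each call in every leave-one-out fit and every other setting. The 1 called lower was Macf1, a plakin that links microtubules and actin, with 73.0 ± 10.2 CPM in Pelo -/- Lrig1 and 76.5 ± 18.8 in Pelo -/- Lgr6 libraries, against 246.5 ± 13.1 in Pelo -/- Lgr5 libraries (SD, n = 3 each). The log2 difference of Macf1 was -1.76 ± 0.36 in Pelo -/- Lrig1 cells (adjusted p = 0.00276) and -1.69 ± 0.36 in Pelo -/- Lgr6 cells (adjusted p = 0.00279). Dst and Macf1, both large cytolinkers of the plakin family, thus lay on opposite sides of 0. With total counts alone the number called higher in the WT comparisons was 3 and 3.

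Summed markers of several other cell types differed between the populations. Of the 7 suprabasal keratinocyte markers all were measured, and their summed CPM was 3590 to 13600 in Lrig1 and Lgr6 libraries and 47.4 to 149 in Lgr5 libraries. For 6 immune markers it was 34.9 to 345 in Lrig1 and Lgr6 libraries and 2.44 to 10.2 in Lgr5 libraries. For 7 fibroblast markers it was 1.38 to 21.3 in Lrig1 and Lgr6 libraries and 35.2 to 67.5 in Lgr5 libraries, and for 6 melanocyte markers it was 11.8 to 38.2 in Lrig1 and Lgr6 and 53.2 to 309 in Lgr5 libraries. Endothelial markers (8 genes) summed to 3.26 to 14.5 in Lrig1 and Lgr6 libraries and 14.8 to 34.3 in Lgr5 libraries. Smooth muscle and pericyte markers (6 genes) overlapped, at 2.18 to 11.9 in Lrig1 and Lgr6 and 5.58 to 15.6 in Lgr5 libraries. Schwann and neural markers (5 genes) overlapped too, at 21 to 69.8 in Lrig1 and Lgr6 and 10.7 to 38.9 in Lgr5 libraries. These sums can rest on few genes. Of the 7 fibroblast markers, 1 was called lower in each comparison with Lgr5 cells. Positive log2 differences numbered 1 in Pelo -/- Lrig1, 0 in WT Lrig1 and 2 in each Lgr6 comparison. Of the 8 endothelial markers 0 were called in these comparisons, and 1 was positive in WT Lgr6 cells. Melanocyte markers called lower numbered 3 in Pelo -/- Lrig1, 1 in WT Lrig1, 4 in Pelo -/- Lgr6 and 1 in WT Lgr6 cells. In WT cells 1 (Lrig1) and 2 (Lgr6) of these 6 were positive. Of the 6 immune markers, 1 was called higher in each comparison with Lgr5 cells. Of the same 6, log2 differences were negative for 4 in WT Lrig1, 1 in WT Lgr6 and 3 in each Pelo -/- comparison. Of the 5 Schwann and neural markers, 1 was called higher in each comparison. Negative values there numbered 4 in Pelo -/- Lrig1, WT Lrig1 and WT Lgr6 and 3 in Pelo -/- Lgr6 cells. No marker of these lists was at 0 in all 11 or in all 6 libraries. The part of these markers in the differences of the 9 genes was not tested.

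Over the 17 libraries, the genes with log2 CPM most like that of each member were named by Pearson correlation among 7998 candidates. The libraries share population, scaling and depth, and the values are descriptions. Lamb3 ran with Itgb1 (r = 0.89), Itgb4 (r = 0.89) and Krt5 (r = 0.89), and Npnt ran with Ptch1 (r = 0.95), Tfap2b (r = 0.94) and Macf1 (r = 0.94). Dst was closest to Slc1a4 (r = 0.96), Plec to Ap1b1 (r = 0.93), Cd151 to Isca2 (r = 0.95) and Lama3 to Cyfip1 (r = 0.92). Lama5 was closest to Duox1 (r = 0.90), Lamb1 to Ltbp3 (r = 0.88) and Lamc1 to Impa1 (r = 0.89). Among the 9 themselves, Lama3 ran with Cd151 (r = 0.88) and Lamb3 (r = 0.855), and Lama5 with Lamb1 (r = 0.77). Dst and Npnt ran against each other (r = -0.83). Lamc1 stood near 0 with Lama5 (r = 0.035) and Lamb1 (r = 0.0082), although the 3 chains can form 1 trimer.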

How the data were processed

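Per the labels, each library began with 1000 sorted cells and followed the protocol of Picelli and colleagues, which copies whole transcripts. The authors deposited raw counts, whole numbers for each gene in 17 libraries, and these entered the fits unchanged. STAR, edgeR and the builds GRCm38 and mm10 appear in the submitters' processing notes without versions. How reads were counted (tool, annotation release, strand, shared reads) is not stated in the sources at hand. Symbols, positions and merged exon lengths came from GENCODE M21, and 762 identifiers had no symbol.

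Genes were filtered with filterByExpr (minimum count 10, minimum total 15) and fitted in edgeR 4.0.16 (R 4.3.3) with TMM factors, robust quasi-likelihood and 1 coefficient for each of the 6 groups, giving 12 comparisons. The common dispersion was 0.537. TMM factors were 0.688 to 0.964 in Lrig1 and Lgr6 and 0.990 to 1.91 in Lgr5 libraries. The threshold for a call was an adjusted p (Benjamini-Hochberg, over all genes tested) under 0.05; adjusted p values in the text are from edgeR unless another tool is named. Standard errors were taken as the size of the log2 fold change divided by the root of its F statistic. The fits were also run on simulated counts. Their spread between libraries was set lower than the common dispersion above, so that run does not show how the fits perform on these libraries.

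Alternatives were RLE factors, no filter, a minimum mean CPM of 5, DESeq2 1.42.0, limma-voom (limma 3.58.1), the replicate number as a block, leaving out each library and, chosen after seeing the data, total counts without composition factors. The 9 genes, the lists and the markers were chosen with earlier results of these data known. Named genes were all 9 members, up to 4 genes a list with the smallest p in a comparison, and the 3 genes most like each member among genes whose log2 CPM averaged 3 or more. No pair of libraries were copies: chi-square values between libraries were at least 38.7 times their degrees of freedom within a group and 44.5 times between groups. The list of other laminin chains is not reported here.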

Additional observations from a re-analysis of the deposited data

How the results depend on the processing

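Of the 9 genes, 0 were called in the Pelo -/- against WT, Lrig1 against Lgr6 and difference-of-effects comparisons under every alternative run. The number called between WT Lrig1 and WT Lgr5 cells was 4, and 2 with RLE size factors. Leaving out 1 library gave 0 to 4 there: 0 without either WT Lrig1 library and 2 without WT Lgr5 replicate 1 or 2. In WT Lgr6 against WT Lgr5 cells it gave 1 to 6 in place of 5: 1 without WT Lgr6 replicate 1, 2 without WT Lgr6 replicate 3 and 3 without WT Lgr5 replicate 2. Pelo -/- Lrig1 against Pelo -/- Lgr5 cells gave 0 to 3 in place of 3: 0 without Pelo -/- Lrig1 replicate 2, and 1 without Pelo -/- Lrig1 replicate 1 or 3 or Pelo -/- Lgr5 replicate 2 or 3. Pelo -/- Lgr6 against Pelo -/- Lgr5 cells gave 2 to 3 in place of 3. Of the partners and linkers, Col17a1 in WT Lrig1 against WT Lgr5 cells became called lower with total counts alone (-0.96), and Utrn in WT Lgr6 against WT Lgr5 cells at a minimum mean CPM of 5 (-0.83). The cause was not tested.

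Calls over all genes in Pelo -/- against WT cells were 0, 0 and 6 (Lrig1, Lgr6, Lgr5), and 33, 18 and 189 with DESeq2, and 5, 1 and 80 without a filter. In Lgr5 cells they were 2 with total counts, 2 with the replicate block and 0 with limma-voom. DESeq2 called 4580, 7396, 5175 and 6264 genes in Pelo -/- Lrig1, WT Lrig1, Pelo -/- Lgr6 and WT Lgr6 against Lgr5 cells, where edgeR called 2386, 3369, 3026 and 3713, and limma-voom called 5076 in WT Lrig1. For Lrig1 against Lgr6 cells DESeq2 called 63 (Pelo -/-) and 52 (WT), no filter 14, and total counts and the block 1 each in Pelo -/- cells. Differences of effects had 55 to 62 calls with DESeq2 and 18 to 28 without a filter. The split of calls moved with the scaling. In WT Lrig1 against WT Lgr5 cells it was 2765 higher and 604 lower, and with RLE 2117 and 946, total counts 1274 and 2019, a minimum mean CPM of 5 1663 and 1403, limma-voom 3517 and 1559 and DESeq2 2866 and 4530. In WT Lgr6 against WT Lgr5 cells it was 3236 and 477, with RLE 2158 and 979, total counts 1538 and 1617, the CPM minimum 1894 and 1752, and DESeq2 3045 and 3219. In Pelo -/- Lrig1 against Pelo -/- Lgr5 cells it was 1753 and 633, with total counts 1045 and 1349, with the CPM minimum 1322 and 1198 and with DESeq2 2352 and 2228. In Pelo -/- Lgr6 against Pelo -/- Lgr5 cells it was 2198 and 828, and in these settings 1302 and 1792, 1553 and 1540, and 2653 and 2522. Leaving out 1 library brought the calls in these 4 comparisons down to 1294 (without WT Lrig1 replicate 2), 1932 (WT Lgr6 replicate 3), 1366 (Pelo -/- Lrig1 replicate 1) and 1990 (Pelo -/- Lgr6 replicate 1), and gave up to 20 in Lgr5 cells of both genotypes (Pelo -/- Lgr5 replicate 3).

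Same-numbered libraries were not shown to be paired: over 40 pairs the correlation of deviations was -0.24 to 0.24, with 3 above 0.1. With the replicate number as a block, 6 of the 9 were called in WT Lgr6 against WT Lgr5 cells in place of 5, Lamb1 being added, and no other call among the 9 changed. The smallest count behind any value of the 9 was 48, for Lamb1 in WT Lgr6 replicate 1, beside 373 and 75 in replicates 2 and 3 of that group. How far low counts limit the precision of that gene was not tested.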
